A study of Mus musculus with 6 samples.

Results

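Enteric glial cells (EGCs) are the glia of the gut wall, and they arise from the neural crest, the migratory cells of the embryo that also give rise to Schwann cells and melanocytes. The 9 genes examined here are commonly used to recognise this lineage: the transcription factors Sox10, Sox9, Sox2 and Foxd3, the cytosolic proteins S100b and Fabp7, the myelin-associated enzyme Cnp, and the adhesion molecules Cdh19 and L1cam. They were picked out by gene symbol, and each matched 1 of the 46603 gene identifiers. The libraries were made from poly(A) RNA of neurosphere-derived EGCs. Whole intestines of C57BL/6J embryos at embryonic day 14.5 were dissociated, the cells were kept for 1 week as free-floating neurospheres with EGF and FGF, and they were then plated in medium with 10% FBS until confluent. The 3 control cultures received no stimulus and the 3 LPS cultures received lipopolysaccharide, a component of the bacterial cell wall, at 100 ng/ml for 12 h. All 6 cultures shared the strain, the age and the culture steps, and no sort for glia was described. The sources did not say whether the libraries of a group came from separate litters or platings, so p-values measure the spread between these 3 libraries per group, which may be technical.

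SOX10 is the factor that neural crest cells need to become and remain glia, and it works together with SOX9 early in the crest and with SOX2 and FOXD3 in progenitors that have not yet differentiated. S100B is a calcium-binding protein that glia both hold in the cytosol and release, FABP7 carries fatty acids in radial glia and immature Schwann cells, CNP is an enzyme of myelinating glia, and the cadherin CDH19 marks Schwann cell precursors. L1CAM is an adhesion molecule of neurons and crest-derived cells that migrating enteric progenitors use. A bulk library cannot tell fewer glia from less RNA per glial cell.

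In short, 3 of the 9 genes changed with LPS. S100b fell 3.75-fold, Cdh19 fell 1.58-fold and Fabp7 rose 2.45-fold, whereas the 4 SOX and forkhead factors, Cnp and L1cam did not pass the test. The edgeR quasi-likelihood test with Benjamini-Hochberg adjustment called 15.8% of the 15226 tested genes at an adjusted p under 0.05, 9.09% higher and 6.71% lower, so 1 higher and 2 lower of 9 genes is the measure to set beside that background. The same 3 genes were those whose control and LPS libraries did not overlap, against 38.7% of all tested genes (19.3% higher and 19.4% lower). With 1 library left out at a time, none of the 9 genes was called when control replicate 1 or 2 or LPS replicate 2 was absent, where the test called 4.28%, 3.15% and 4.41% of all genes. Fabp7 alone was called without LPS replicate 1 (5.42% of all genes), Fabp7 and S100b without LPS replicate 3 (21.7%), and all 3 without control replicate 3 (14.2%). The median log2 fold change of the 9 genes was -0.19, beside -0.02 over all tested genes. Leaving out control replicate 1 gave -0.07, and leaving out control replicate 3 gave -0.29.

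The total count per library was between 18775316 and 23664312, and 3 counts, taken as the detection floor, corresponded to between 0.124 and 0.167 CPM (counts per 1 M counts of the corrected library size). The 9 genes had between 51 and 3835 counts in a library, so none was near the floor. Library sizes were corrected by the trimmed mean of M-values (TMM), and intervals from 3 libraries cover the spread between libraries, not the unrecognised PCR copies. Markers of other cells were present beside the glial genes. Mesenchymal markers summed to between 15124 and 16295 CPM, led by Col1a1 and Col3a1, and macrophage markers to between 4044 and 20205 CPM, led by Lyz2 and Adgre1. Of these, the macrophage gene Adgre1 rose from a mean of 287 to 1971 CPM (log2 fold change 2.78, edgeR adjusted p = 0.0452), and with the replicate number as a block 4 macrophage markers were called higher and 3 lower. The mesenchymal genes Dcn (log2 fold change 0.90, edgeR adjusted p = 0.0118) and Pdgfra (0.50, adjusted p = 0.0114) also rose, while the list median was -0.14. With the block, Lum and Thy1 of that list were called lower as well (adjusted p = 0.00581 and 0.0209). Smooth muscle markers summed to between 2290 and 2523 CPM in control and between 640 and 911 CPM in LPS, led by Acta2 and Tagln, and all 7 tested members fell. Neuron markers, led by Uchl1 and Tubb3, summed to between 236 and 436 CPM, and none of their 8 members was called or had an unadjusted p under 0.05 by edgeR, DESeq2 or limma-voom. Vil1 and Cldn7 of epithelium, Tyr, Mlana and Tyrp1 of melanocytes, and Mog and Aqp4 of brain glia were at or under the floor in all 6 libraries. The part that the other cells had in the results below was not tested.

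**Figure D1:**
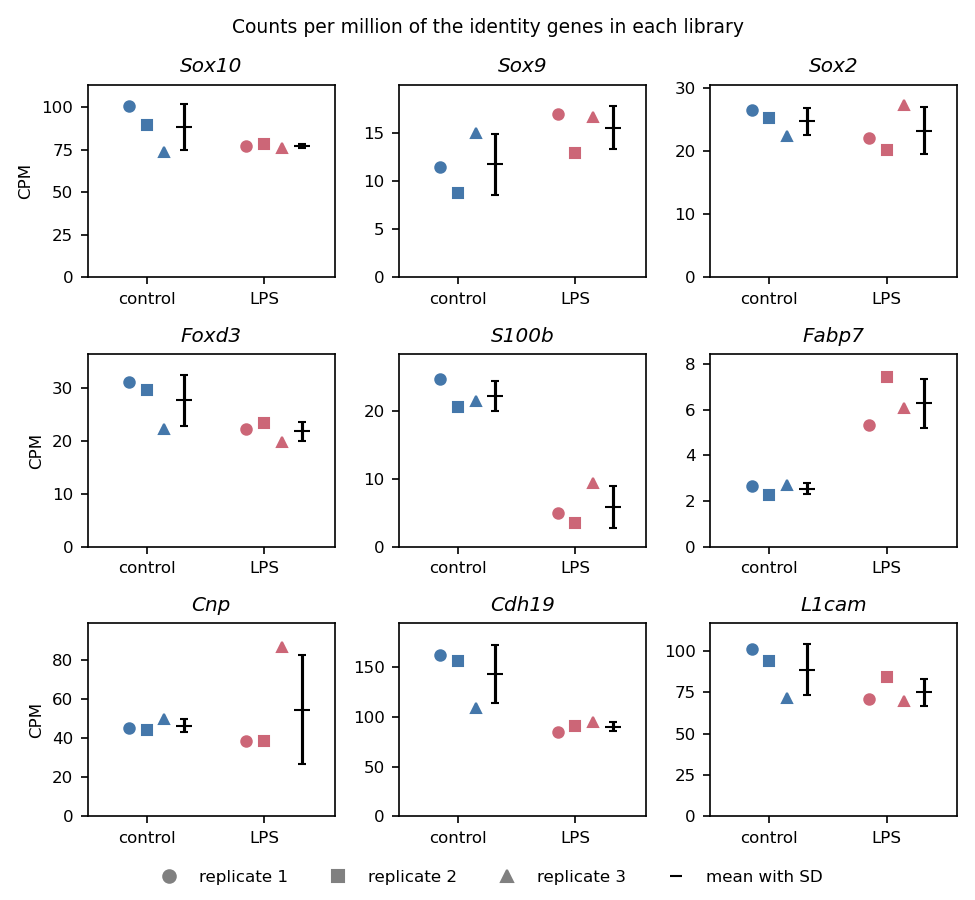
Level of each of the 9 genes in each library, as CPM on linear axes that start at 0 and differ between genes, with 1 symbol per culture (circle, square and triangle for replicates 1, 2 and 3, control in blue and LPS in red) and the group mean with its SD in black. S100b, Cdh19 and Fabp7 are the genes whose groups do not overlap, and 1 LPS library stands far above the other Cnp values.

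Sox10, the defining factor of the glial lineage, lies on the minus strand at chr15:79154908-79165240 (GRCm38) with 5 exons. It was at 101, 89.5 and 73.8 CPM in control replicates 1, 2 and 3 and at 76.8, 78.2 and 75.9 CPM in LPS replicates 1, 2 and 3. The LPS libraries fell close together, at 77.01 ± 1.16 CPM (SD, n = 3), inside the wider range of the controls, at 88.0 ± 13.5 CPM (SD, n = 3). The log2 fold change was -0.19 (SE 0.12, edgeR adjusted p = 0.332), which places the LPS level between 0.805 and 0.952 of the control level at 1 SE. Sox10 transcript therefore did not differ between the groups beyond the spread of the controls, and a fall of that size was not detectable here.

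Foxd3, a winged-helix repressor that holds crest cells in the progenitor state, is a single-exon gene at chr4:99656299-99658622. Its control values were 31.3, 29.7 and 22.2 CPM and its LPS values 22.4, 23.4 and 19.8 CPM. Control replicate 3 lay among the LPS libraries, so the groups overlapped. The log2 fold change was -0.34 (SE 0.15, edgeR adjusted p = 0.191), and each LPS library was below the control of the same number. With the replicate number as a block it was -0.33 with an edgeR adjusted p of 0.0533.

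Sox2, which maintains multipotent progenitors and is also kept by mature enteric glia, is a single-exon gene at chr3:34650405-34652461. It was at 26.6, 25.2 and 22.4 CPM in control and 22.1, 20.2 and 27.4 CPM in LPS. The highest and the lowest value were both LPS libraries, and the log2 fold change was -0.09 (SE 0.14, edgeR adjusted p = 0.714). Its sign turned without LPS replicate 2.

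Sox2 lies within an intron of Sox2ot, a long non-coding RNA gene transcribed in the same direction, with no exon in common. Sox2ot was named for this position after its values were seen. It fell from 7.67, 4.87 and 5.33 CPM in control to 1.28, 1.78 and 2.46 CPM in LPS, with no overlap and a log2 fold change of -1.69 (SE 0.32, edgeR adjusted p = 0.0220). The host transcript of the locus thus passed the test and Sox2 itself did not. The Sox2ot call was lost without control replicate 1 (edgeR adjusted p = 0.0808), control replicate 2 (0.0743), LPS replicate 1 (0.0682) or LPS replicate 2 (0.0944).

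Sox9, which is needed for the early crest and later for cartilage and glia, lies at chr11:112782224-112787760 with 3 exons. The control libraries had 11.5, 8.72 and 15.002 CPM and the LPS libraries 16.95, 12.9 and 16.6 CPM. The ranges overlapped through control replicate 3, while each LPS library was above the control of the same number. The log2 fold change was 0.40 (SE 0.23, edgeR adjusted p = 0.284), and 0.42 with an adjusted p of 0.0693 when the replicate number was a block.

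S100b, the calcium-binding protein by which enteric glia are most often stained, lies at chr10:76253853-76261159 with 3 exons. It had 583, 464 and 518 counts in the control libraries, or 24.7, 20.5 and 21.4 CPM. The LPS libraries had 100, 62 and 179 counts, or 4.94, 3.46 and 9.37 CPM. Every LPS library was below the lowest control, and LPS replicate 3 was the least reduced. The means were 22.2 ± 2.20 and 5.92 ± 3.08 CPM (SD, n = 3 each) and the log2 fold change was -1.91 (SE 0.37, edgeR adjusted p = 0.0238). The call rested on several libraries. It was lost without control replicate 1 (edgeR adjusted p = 0.0884), control replicate 2 (0.0906), LPS replicate 1 (0.0892) or LPS replicate 2 (0.0607), while without LPS replicate 3 the log2 fold change was -2.40 with an adjusted p of 0.0020.

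Fabp7, the brain-type fatty acid binding protein of radial glia and glial precursors, lies on the same chromosome at chr10:57784881-57788450 with 4 exons. Its levels were low, with 63, 51 and 66 counts in control and 108, 133 and 116 in LPS. As CPM, it rose from 2.67, 2.26 and 2.73 to 5.34, 7.41 and 6.07. The lowest LPS library stood well above the highest control. The log2 fold change was 1.29 (SE 0.19, edgeR adjusted p = 0.0122), a 2.45-fold rise from 2.55 ± 0.256 to 6.27 ± 1.05 CPM (SD, n = 3 each). The call was lost without control replicate 1 (edgeR adjusted p = 0.0584), control replicate 2 (0.0723) or LPS replicate 2 (0.0538).

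S100b and Fabp7 changed in opposite directions and both had a promoter sequence in RefSeq, so the 250 bases before their start sites are shown, 5′ to 3′ on the plus strand (GRCm38.p6). The S100b window is chr10:76253586-76253835 and the Fabp7 window chr10:57784673-57784922. Capitals mark CCAAT or its reverse complement ATTGG, the motif known as the CCAAT box.
S100b: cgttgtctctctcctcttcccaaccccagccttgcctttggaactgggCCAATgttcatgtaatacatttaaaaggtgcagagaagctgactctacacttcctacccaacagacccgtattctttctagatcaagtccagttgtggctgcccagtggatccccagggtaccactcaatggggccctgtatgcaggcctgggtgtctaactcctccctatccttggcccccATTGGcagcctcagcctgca
Fabp7: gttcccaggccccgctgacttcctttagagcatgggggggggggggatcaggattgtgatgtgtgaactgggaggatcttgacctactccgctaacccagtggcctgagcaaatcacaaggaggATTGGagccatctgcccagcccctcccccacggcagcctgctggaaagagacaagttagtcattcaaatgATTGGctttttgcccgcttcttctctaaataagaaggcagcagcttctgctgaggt
Both windows held 2 matches, in S100b at 202 bases before the start on the coding strand and 20 bases before it on the opposite strand, and in Fabp7 at 126 and 56 bases before it on the opposite strand. CCAAT occurred on either strand in 33.8% of 32851 promoter windows of this length. The SOX-type cores ACAAAG and ACAATG, searched on both strands, occurred in neither window, although 25.2% of all windows held at least 1 of them. ACAAAG was found before Sox2 at 206 bases and before Cnp at 167 bases. A match describes the letters and is no evidence of binding, and sequences of Sox10, Sox9 and Cdh19 were not used here.

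Cnp, the 2′,3′-cyclic nucleotide phosphodiesterase of myelinating glia, lies at chr11:100574904-100591729 with 6 exons. It was at 45.3, 44.1 and 50.2 CPM in control and at 38.5, 38.5 and 86.9 CPM in LPS. LPS replicates 1 and 2 lay below all controls, and LPS replicate 3 above all of them. The log2 fold change was therefore 0.23 (SE 0.34, edgeR adjusted p = 0.689) and turned to -0.27 (adjusted p = 0.0815) without LPS replicate 3. Macrophage markers were also highest in that library, which had 20205 CPM of them in sum, LPS replicates 1 and 2 having 4044 and 5240 CPM. Their part in the Cnp value was not tested. The 3′ end of Cnp shares 154 bases (4.23% of its exon length) with Dnajc7 on the opposite strand, and the strand setting of the counting was not stated.

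Cdh19, a type II cadherin of crest-derived glial precursors, lies on the minus strand at chr1:110888326-110977584 with 13 exons. The control libraries had 163, 156 and 109 CPM and the LPS libraries 85.1, 90.9 and 94.9 CPM. Control replicate 3 was the library nearest to the LPS group, and no values overlapped. The group means were 142.7 ± 29.1 and 90.3 ± 4.93 CPM (SD, n = 3 each). The log2 fold change was -0.66 (SE 0.16, edgeR adjusted p = 0.0457). This call was the least firm of the 3. Without control replicate 1, control replicate 2, LPS replicate 1, LPS replicate 2 or LPS replicate 3 the edgeR adjusted p was 0.139, 0.163, 0.139, 0.145 and 0.0569, and by limma-voom it was 0.0546. Without control replicate 3 the log2 fold change was -0.80 with an adjusted p of 0.00695.

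L1cam, an immunoglobulin-type adhesion molecule, lies on the minus strand at chrX:73853778-73896105 with 30 exon blocks. It was at 101, 93.6 and 71.2 CPM in control and at 70.8, 84.3 and 69.4 CPM in LPS. The groups overlapped, with 2 LPS libraries just below the lowest control, and the log2 fold change was -0.24 (SE 0.15, edgeR adjusted p = 0.337). L1cam shares 100 bases (1.36% of its exon length) with Arhgap4 on the same strand. Arhgap4 itself was not called (log2 fold change 1.72, edgeR adjusted p = 0.266). It was at 11.9, 17.9 and 107 CPM in LPS replicates 1, 2 and 3, and its part in the L1cam values was not tested.

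**Figure D2:**
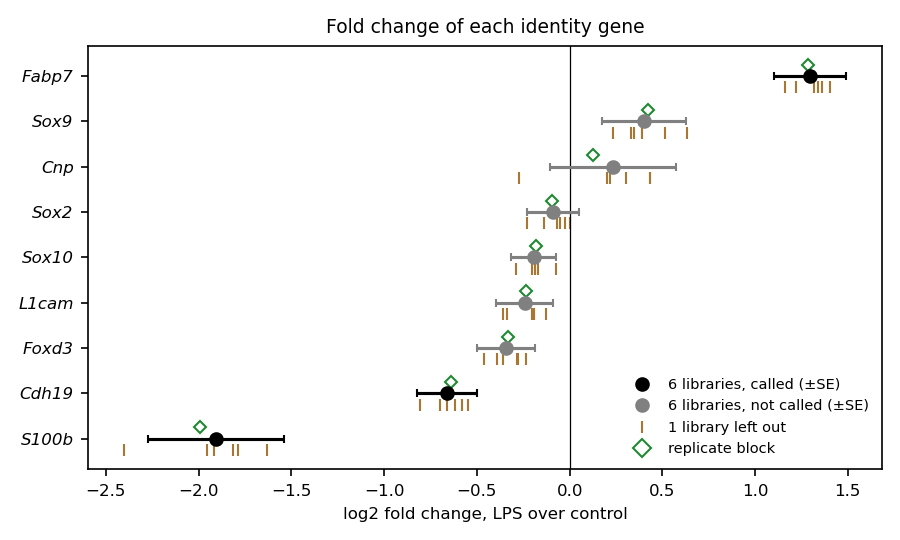
Log2 fold change of each of the 9 genes, LPS against control, with black circles for genes called, grey circles for genes not called, bars of 1 SE from edgeR, ticks for the fits with 1 library left out and green diamonds for the replicate block. S100b, Fabp7 and Cdh19 at -1.91, 1.29 and -0.66 are called, and a tick of Cnp at -0.27 lies on the other side of 0.

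The levels of the 9 genes were next ordered per length, as CPM per kb of exon, because longer transcripts give more reads. In control, Cdh19 (33.4 CPM per kb) and Sox10 (28.8 CPM per kb) led and their libraries overlapped. S100b followed at 14.97 CPM per kb, apart from Sox10 above and from Cnp below. Cnp (12.8), L1cam (12.0), Sox2 (12.0) and Foxd3 (11.9 CPM per kb) were neighbours whose libraries overlapped, and Sox9 (2.84) and Fabp7 (2.04 CPM per kb) were lowest and overlapped too. In LPS, Sox10 led at 25.2 CPM per kb, apart from Cdh19 at 21.1 CPM per kb. Cnp (15.01), Sox2 (11.3), L1cam (10.2) and Foxd3 (9.41) came next. Fabp7 (5.02), S100b (3.99) and Sox9 (3.75 CPM per kb) formed the lowest group. S100b thus moved from rank 3 to rank 8 of 9, and Fabp7 from rank 9 to rank 7. Among all tested genes the level of S100b per kb went from percentile 78.9 to percentile 44.4 and that of Fabp7 from 31.0 to 49.7, while Sox10 went from 89.6 to 86.0 and Cdh19 from 91.3 to 83.3.

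**Figure D3:**
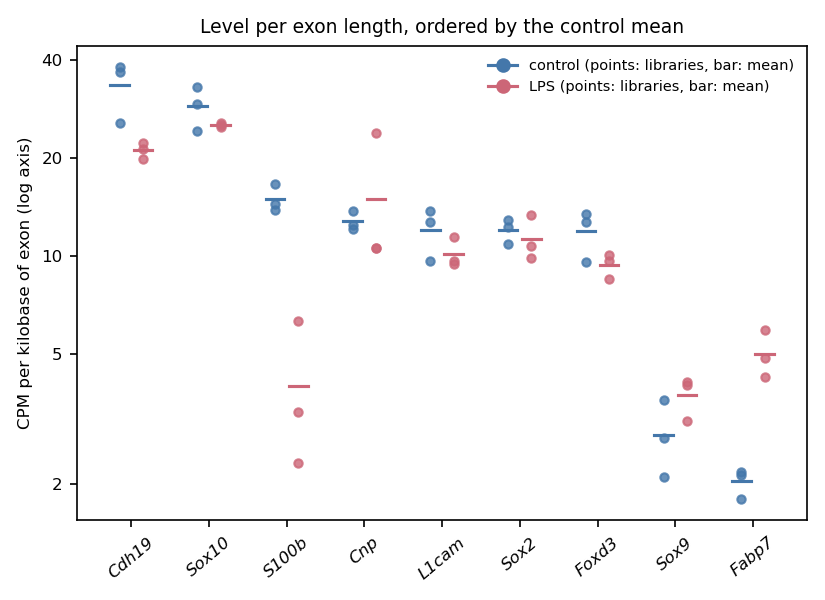
Level per length of the 9 genes, as CPM per kb of exon on a log axis, in the order of the control mean, with points for the 3 control and 3 LPS libraries and bars at the group means. S100b falls from 14.97 to 3.99 CPM per kb and Fabp7 rises from 2.04 to 5.02 CPM per kb, while Sox10 stays near the top.

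To view the genes against the amount of glial transcript in each library, their counts were expressed as a percentage of the Sox10 count of the same library. S100b was 24.5%, 23.0% and 29.0% of Sox10 in control and 6.43%, 4.42% and 12.3% in LPS. Fabp7 was 2.65%, 2.52% and 3.70% in control and 6.95%, 9.47% and 7.99% in LPS. Cdh19 was 161%, 175% and 148% in control and 111%, 116% and 125% in LPS. For these 3 genes the groups stayed apart relative to Sox10, with log2 differences of -1.85, 1.47 and -0.46. Foxd3 also separated by a narrow margin, at 31.0%, 33.2% and 30.1% in control and 29.1%, 29.9% and 26.1% in LPS. For each of these 4 ratios an exact two-sided permutation test gave p = 0.1, the smallest that 3 against 3 libraries allow, and 0.2 after adjustment over 8 ratios. Over all other tested genes, the ratio to the Sox10 count separated the groups in 31% (21.9% higher and 9.16% lower). L1cam followed Sox10 closely in every library, at between 91.3% and 108% of its count, and its ratio overlapped between groups (exact permutation p = 0.6). The Sox9, Sox2 and Cnp ratios overlapped as well (exact permutation p = 0.2, 0.8 and 0.6).

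**Figure D4:**
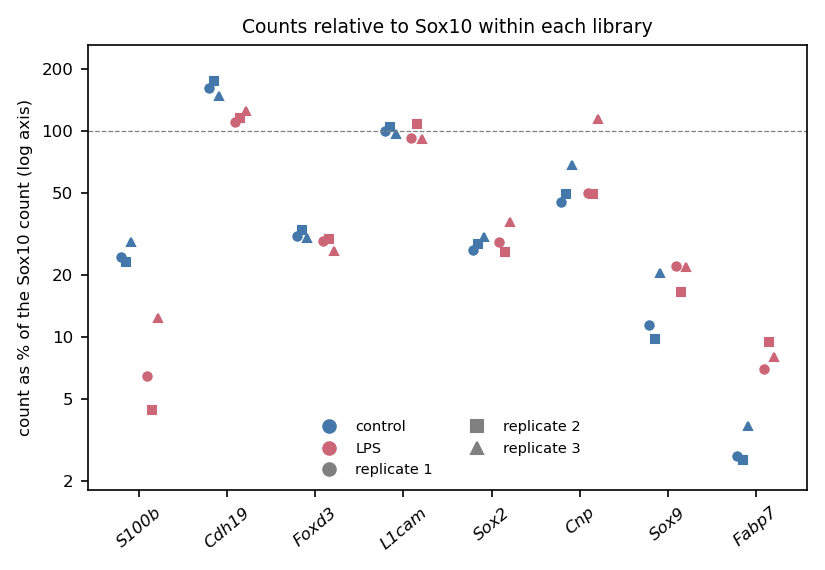
Count of each gene as a percentage of the Sox10 count of the same library, on a log axis, with points for the 3 control and 3 LPS libraries. S100b and Fabp7 separate widely, Cdh19 separates, Foxd3 separates narrowly and L1cam lies near 100% in both groups.

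The control libraries themselves were not alike. Control replicate 3 had the lowest control value of Sox10, Foxd3, Sox2, Cdh19 and L1cam and the highest of Sox9, Fabp7 and Cnp. Its macrophage markers summed to 12623 CPM, those of control replicates 1 and 2 to 4107 and 5321 CPM. Its neuron markers summed to 236 CPM, those of the other controls to 436 and 423 CPM. With replicate 3 of both groups left out, a choice made after the data were seen and with no test, the log2 fold changes of S100b and Cdh19 were -2.43 and -0.86.

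Over the 6 libraries, Sox10 correlated with Foxd3 (Pearson r = 0.93), L1cam (r = 0.92) and Cdh19 (r = 0.87) on log2 CPM, but less with S100b (r = 0.53). S100b and Fabp7 ran opposite (r = -0.93). These values describe 6 libraries in 2 groups that share preparation and scaling. Of 11480 genes with a mean of at least 5 CPM, those most like Sox10 were Zcchc24 (r = 1.00), Eif2s3x (r = 0.98), Tom1l2 (r = 0.97), Fam120c (r = 0.97) and Dnal1 (r = 0.97), and 185 genes had r over 0.9. Those most like S100b were Ank, Megf6, Dbp, Igfbp6 and Zim1, each with r of 1.00 after rounding, and 870 genes had r over 0.9.

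Relatives of the 9 genes were then described from 7 lists covering 71 genes, of which 56 were tested. Of these, 5 were called higher and 11 lower by edgeR, against 9.09% and 6.71% of all tested genes. These became 0 higher and 2 lower when control replicate 1, control replicate 2 or LPS replicate 2 was left out in turn, 1 higher and 2 lower without LPS replicate 1, and 3 higher and 12 lower without control replicate 3. Without LPS replicate 3 the counts were 5 higher and 11 lower. The shares of all genes called in those 6 fits were, in the same order, 4.28%, 3.15%, 4.41%, 5.42%, 14.2% and 21.7%. Only Pmp22 and Nrcam kept their calls in all 6 of these fits. With the replicate number as a block 11 were higher and 18 lower, against 30.3% of all tested genes in either direction.

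Among other SOX factors, 2 of 5 tested genes fell and the median log2 fold change was -0.37. Sox4, which is broadly used in progenitors, went from 303, 287 and 239 CPM in control to 206, 196 and 164 CPM in LPS (log2 fold change -0.55, edgeR adjusted p = 0.0439). Sox6 went from 24.8, 22.8 and 19.2 CPM to 10.9, 11.5 and 14.6 CPM (-0.85, adjusted p = 0.0224). Both groups were fully separated. Sox8, the close relative of Sox10, was at between 0.419 and 0.827 CPM in all libraries and was not called, nor were Sox5 and Sox11 (the latter was called higher with the replicate block, adjusted p = 0.0422), while Sox1, Sox3 and Sox21 were at the floor.

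Among other neural crest factors 2 of 9 tested genes rose and none fell, with a median log2 fold change of 0.37. With the replicate block Snai2 was called lower (adjusted p = 0.0408). Snai1, the repressor of E-cadherin in migrating crest, rose from 20.98, 18.5 and 26.1 CPM to 39.0, 40.0 and 35.6 CPM (0.81, edgeR adjusted p = 0.0198). Msx2 rose from 0.593, 0.443 and 0.992 CPM to 4.003, 4.07 and 1.31 CPM (2.20, edgeR adjusted p = 0.0470), and with the replicate block its adjusted p was 0.0623. Zeb2, another repressor of E-cadherin, was higher in every LPS library than in any control, between 295 and 414 CPM against between 201 and 291 CPM. It was not called (0.55, edgeR adjusted p = 0.130), but was with the replicate block (adjusted p = 0.00507). Ngfr and Ets1, at log2 fold changes of -0.23 and 0.10, were not called.

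Among other glial and Schwann cell genes, 1 of 15 tested genes rose and 2 fell, with a median of -0.36 (4 higher and 4 lower with the replicate block). Pmp22, a myelin membrane protein, fell from 197, 227 and 228 CPM to 104, 109 and 102 CPM (-1.05, edgeR adjusted p = 0.00176). Gjc3, a glial connexin, fell from 54.1, 44.2 and 28.4 CPM to 19.9, 22.9 and 22.4 CPM (-0.96, adjusted p = 0.0477). Pou3f1, a factor of the promyelinating Schwann cell, rose from between 0.177 and 0.212 CPM to between 0.557 and 1.52 CPM (2.21, adjusted p = 0.0337), at counts near the floor in control. Gfap, the glial intermediate filament, was at 3.26, 3.63 and 5.66 CPM in control and 2.77, 2.23 and 7.22 CPM in LPS (-0.04, adjusted p = 0.967). The uncalled Gap43 and Lgi4 had log2 fold changes of -0.47 and -0.53.

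All 8 enteric progenitor genes were tested and 3 fell, with a median log2 fold change of -0.26. Gfra1, the GDNF co-receptor, fell from 239.8, 202 and 138 CPM to 90.4, 86.7 and 108 CPM (-1.02, edgeR adjusted p = 0.0310). Nes, the progenitor intermediate filament, also fell (-0.40, edgeR adjusted p = 0.0277). Ret, which signals with GFRA1, was at 67.8, 71.2 and 32.9 CPM in control and 54.8, 70.4 and 33.0 CPM in LPS and was not called (-0.12, adjusted p = 0.865). Ednrb and Hand2 were not called at -0.01 and 0.47, and Hand2 was called higher with the replicate block (adjusted p = 0.0217).

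Of 7 cadherins and L1-type adhesion molecules, Nrcam, a relative of L1cam, fell from 111, 108 and 128 CPM to 71.3, 70.8 and 74.8 CPM (-0.68, edgeR adjusted p = 0.00814). Cdh6, a type II cadherin of the early crest, rose from 3.43, 4.07 and 2.52 CPM to 5.73, 8.41 and 9.89 CPM (1.26, adjusted p = 0.0361). Cdh11, Cdh2 and Ncam1 were not called, with log2 fold changes of 0.31, 0.01 and -0.43. With the replicate block Cdh11 was called higher (adjusted p = 0.0488) and Ncam1 lower (adjusted p = 0.0390), for 2 higher and 2 lower in the list.

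Among the other S100 genes, 1 of 9 tested rose and 3 fell, with a median log2 fold change of -0.56. The falls were in S100a4 (log2 fold change -0.98, edgeR adjusted p = 0.0362), S100a16 (-0.62, adjusted p = 0.0207) and S100a1 (-0.54, adjusted p = 0.0338), beside -1.91 for S100b. S100a8, a calprotectin subunit of myeloid cells, rose from 0.127, 0.133 and 0.827 CPM to 14.9, 13.5 and 4.03 CPM (fitted log2 fold change 4.87, adjusted p = 0.0205), but control replicates 1 and 2 had no more counts than the floor, so this size depends on the prior count of the fit. S100a6, S100a10 and S100a11 were not called, at -0.59, -0.56 and -0.07. With the replicate block S100a6 (adjusted p = 0.00909) and S100a10 (0.00642) were called lower, and 6 S100 genes in all were lower in place of 3. Of the other fatty acid binding proteins, Fabp3, Fabp4 and Fabp5 were tested. None was called and none had an unadjusted p under 0.05 by edgeR, DESeq2 or limma-voom, so that Fabp7 was the FABP gene that passed the test.

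**Figure D5:**
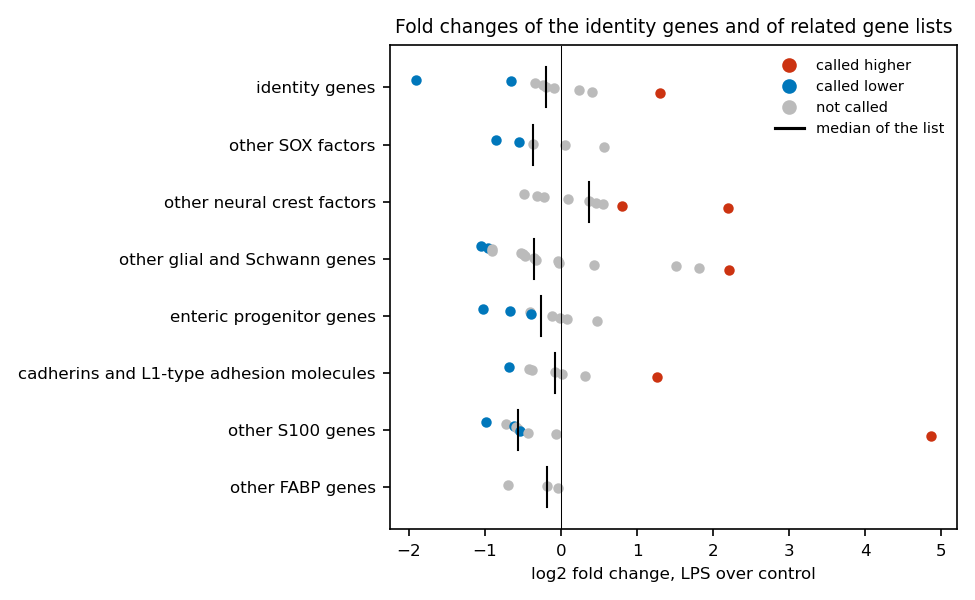
Log2 fold change of each tested gene of the related lists, LPS against control, 1 row per list below the 9 genes, with red points for genes called higher by edgeR, blue for lower, grey for not called and a vertical bar at each median. The medians run from -0.56 for other S100 genes to 0.37 for other neural crest factors, and S100a8 at 4.87 is the highest point.

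The proliferation genes, measured because progenitors and mature glia differ in division, had a median log2 fold change of -0.91 over 8 genes. None was called by edgeR, 7 had an unadjusted p under 0.05 and all of those were lower, and DESeq2 called 2 and limma-voom 1. Their summed level was 281, 330 and 574 CPM in control replicates 1, 2 and 3 and 258, 211 and 165 CPM in LPS replicates 1, 2 and 3. Without control replicate 3 the log2 fold changes of Ccnb1, Ccna2 and Cdk1 moved from -1.15, -1.14 and -0.66 to -0.97, -0.72 and -0.41. Olig1, a marker fixed for central glia that was present here without Mog or Aqp4, fell from 61.1, 58.7 and 36.4 CPM to 9.78, 8.02 and 24.3 CPM (log2 fold change -1.89, edgeR adjusted p = 0.0477). Like S100b, it was least reduced in LPS replicate 3. Its call held without LPS replicate 3 and was lost without each of the other libraries, at adjusted p-values up to 0.154. Its partner Olig2, on average at 2.61 CPM before and 1.35 CPM after LPS, was not called, but was with the replicate block (adjusted p = 0.0449). Kit, a marker of interstitial cells of Cajal, fell by edgeR (log2 fold change -2.12, adjusted p = 0.0473) but was not called by limma-voom, and its companion Ano1 was called lower with the replicate block alone (adjusted p = 0.00406). Mesothelial markers, led by Wt1 and Upk3b, had 1 of 4 genes lower, and endothelial markers, led by Kdr and Emcn, and the melanocyte markers Mitf and Pmel had none called. With the replicate block all 4 mesothelial genes were lower, Wt1 and Upk3b among them (adjusted p = 0.00878 and 0.00610), and 2 endothelial genes higher. Epithelial markers, led by Cdh1 and Lgr5, were too low to test.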

How the data were processed

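RNA of 6 neurosphere-derived EGC cultures, 3 control and 3 LPS by their labels, was sequenced from a poly(A) library (TruSeq Stranded mRNA). The authors deposited whole-number read counts for each gene, not normalized. Per the submitters' processing notes and the series text, the authors trimmed and filtered reads (cutadapt 1.15, FastX, ShortRead), removed contaminants (Bowtie2 2.3.3.1), aligned to GRCm38 with STAR 2.5.2b, used SAMtools 1.5 and counted with featureCounts 1.5.3. The strand setting and the handling of reads with several alignments were not given in the sources used here. A series-wide table was not used here. The 9 genes, the related lists, the marker lists and the tests were chosen with earlier results of these data known.

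Genes were kept by filterByExpr (minimum count 10, minimum total 15), leaving 15226, and scaled by TMM. Groups were compared with the two-sided edgeR 4.0.16 quasi-likelihood F-test in R 4.3.3 (threshold 0.05 after adjustment over all genes), which was tested on simulated data. The SE is the absolute log2 fold change divided by the square root of F. Ratios were compared by an exact permutation test. Coordinates and exon lengths were from GENCODE M21, which held 46091 of 46603 identifiers, and promoters from RefSeq, matching 6 of 9 genes. Alternatives were other scalings and filters, DESeq2 1.42.0, limma-voom (limma 3.58.1), each library left out and the replicate number as a block. Deviations from the group means correlated between same-numbered control and LPS libraries at r = 0.513, 0.334 and 0.613. Since all 3 were over 0.1, the number was used as a block in an alternative fit, while the main comparison had no block. Differently numbered pairs of replicates 1 and 2 correlated about as much (r = 0.419 and 0.323), and pairs of replicate 3 with the others negatively (r between -0.564 and -0.396). The labels do not say what a number stands for, and these correlations cannot establish that same-numbered libraries were pairs. The blocked value is given beside named genes whose call it changes.

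The genes named were the 9 themselves, in each related list up to 4 called genes with the largest fold change and up to 3 uncalled genes with the highest mean CPM, in each marker list the 2 highest, and the 5 genes most like Sox10 and S100b by Pearson r on log2 CPM. Gfap, Sox5, Sox8, Snai2, Lum, Thy1, Dcn, Pdgfra, Sox2ot, Dnajc7, Arhgap4, the proliferation list and marker genes at the floor were named beside these after their values were seen. A few list members are included in the list counts but not described by name.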

Additional observations from a re-analysis of the deposited data

How the results depend on the processing

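Over 14 alternative settings Sox10, Foxd3, Sox9 and L1cam kept their direction and remained uncalled. The same 3 genes were called with the replicate block, 1 higher and 2 lower, where 15.4% of all tested genes were higher and 14.9% lower. With limma-voom 1 gene was called lower. In the 6 fits that each left out 1 library, between 0 and 1 genes were called higher and between 0 and 2 lower. Scaling by library size alone moved the median of the 9 genes from -0.19 to -0.35 and the genes without overlap from 3 to 5 (from 38.7% to 43.5% of all tested genes), and it moved the median of all tested genes from -0.02 to -0.18, and upper-quartile scaling moved that median to -0.12. No list median changed sign under these scalings. With 1 library left out, the cadherin median turned from -0.08 to 0.04 without control replicate 1 and the FABP median from -0.19 to 0.11 without control replicate 3. The SOX median then ran from -0.58 to -0.14 and the neural crest median from 0.16 to 0.46. Without LPS replicate 3 the glial and Schwann median moved from -0.36 to -0.60 and the S100 median from -0.56 to -0.33. Leaving out 1 library gave between 3 and 7 genes without overlap, and between 41.7% and 57.8% of all tested genes. Over these fits Sox2 ran from -0.23 without LPS replicate 3 to 0.0021 without LPS replicate 2. Cnp ran from 0.43 without LPS replicate 1 to -0.27 without LPS replicate 3, and turned to -0.21 without replicate 3 of both groups, a setting chosen after seeing the data. The cause of these reversals was not tested. Counts were lowest for Fabp7, between 51 and 133 per library.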
